A study of Salmo salar with 60 samples.

Results

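Transcript levels in the hind part of the gut (distal intestine) of Atlantic salmon were compared between day 7 and day 5 of feeding on soybean meal. The comparison rests on 20 of the 60 arrays of the series, chosen by their sample titles, with 10 fish of day 5 and 10 fish of day 7. Both groups had first been adapted to a diet with fishmeal as the protein source, at 563 g per kg, and had then received a diet in which 200 g per kg of hexane-extracted soybean meal replaced part of it. The diet was therefore the same in both groups, and the length of soybean meal feeding differed. No fish in the series were kept on fishmeal to these days. Date of sampling and age of the fish can therefore not be told apart from the length of feeding. All were of the Sunndalsøra breed and held in seawater. On either day 5 fish were taken from each of 2 tanks, and only fish with content along the whole gut had been sampled. RNA of 1 fish was labelled with Cy5 on each array and hybridised together with a Cy3-labelled reference pool of 18 fish, 3 from each sampling day, so that the pool held RNA of days 5 and 7 as well. All other sampled days, from day 0 (fishmeal only) to day 3, entered the fit to estimate the spread between fish, which gave 59 arrays. One array labelled tank 0 entered no comparison.

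The distal intestine of salmonids takes up intact protein and other macromolecules by endocytosis into large vacuoles of its absorptive cells. Soybean meal in the diet is known to cause an inflammation of this region, in which the vacuoles are lost, the mucosal folds shorten and leukocytes enter the connective tissue beneath the epithelium. The comparison covers the last interval between samplings. The samples were pieces of whole gut wall, so a change in the share of a cell type and a change in RNA per cell cannot be told apart. Probes are named here by their column and row on the array, since no gene names were paired with them. The tissue label was for the same reason not checked against marker genes, and pathways and cell types are not analysed here.

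The measure was the log2 ratio of the fish to the pool, on which a difference of 1 is a 2-fold change. The median corrected Cy5 signal of an array ran from 58.5 to 111 on day 5 and from 55.5 to 88.5 on day 7, and precision is limited by there being 10 arrays a day. Over all probes, the log ratios of pairs among the 20 arrays had correlations between -0.383 and 0.605. A positive ratio is read as higher in the fish because the dyes are stated in the labels. Of the 43627 probes tested, 16476 (37.8%) had a median Cy5 signal of 200 or more over the 59 arrays and are called bright, and the 27151 others dim. An offset of 50 was added to both channels before the logarithm, which understates the differences of dim probes.

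The fish of day 7 fell apart into 8 that resembled each other and 2 that did not, while those of day 5 were spread along the same line. This line was the first principal component of the 39 fish of days 0 to 3, which held 24.5% of their variation and was found without the fish of days 5 and 7. Projected on it, the fish of day 7 scored -87.8 (replicate 2), -83.5 (replicate 7), 18.2, 19.6, 21.6, 29.1, 30.6, 33, 39.1 and 44.8. No fish of day 7 lay between -83.5 and 18.2. The fish of day 5 scored -75, -62.3, -55.8, -47.5, -32.5, -23.4, 10.9, 19.8, 19.9 and 34.4. Those below 0 were therefore 6, and the 2 days overlapped at both ends. Low scores were not particular to these days, since the lowest fish of day 0, day 1 and day 2 scored -94.1, -92.3 and -120. On day 3 the lowest fish scored -36.1. Mean scores were -21.2 ± 39.6 for day 5 and 6.47 ± 49.3 for day 7 (SD, n = 10 each), and this gap of 27.6 did not pass an exact permutation test (two-sided, 184756 splits of the 20 fish, exact permutation p = 0.181, adjusted p = 0.249 over 4 such measures).

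**Figure D1:**
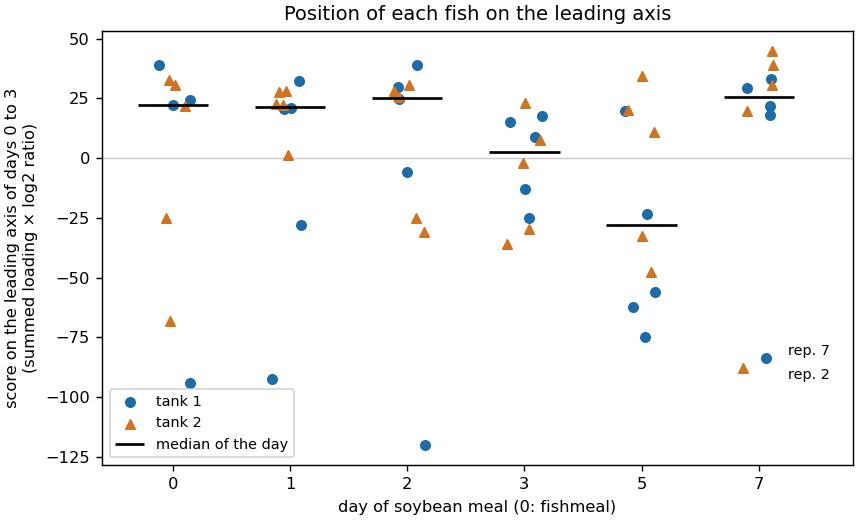
Score of each fish (points, by tank) on the first principal component of the 39 fish of days 0 to 3, by day of soybean meal, with the median of each day as a line; the y axis is a sum of loadings times log2 ratios. On day 7, 8 fish sit between 18.2 and 44.8, replicates 2 and 7 at -87.8 and -83.5, and the fish of day 5 spread from -75 to 34.4.

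Correlations between the arrays showed the same arrangement. Over the bright probes, the log ratios of 2 fish of day 7 correlated at 0.57 in the median of 45 pairs, with a range from -0.498 to 0.777. The median was 0.213 for the 45 pairs of day 5 fish and 0.133 for the 100 pairs of a day 5 and a day 7 fish. Replicates 2 and 7 of day 7 correlated with the other fish of their day at -0.306 and -0.232 on average, and the 8 others at 0.332 to 0.409. The spread was nevertheless not shown to differ between the days. The mean squared difference between fish was 0.341 on day 7 and 0.307 on day 5 (exact permutation p = 0.562). Days accounted for 7.06% of the variation among the 20 fish over all probes (exact permutation p = 0.156). Without replicates 2 and 7 the share was 16.2%, but these fish were singled out by the same values, so this is a description and not a test. What set these 2 fish apart was not tested.

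No probe passed the threshold when all arrays counted equally. With limma, 0 of 43627 probes (0%) reached a Benjamini-Hochberg adjusted p of 0.05, and the smallest adjusted p was 0.0829. Before adjustment 3508 probes (8.04%) had a limma p under 0.05, 1688 higher and 1820 lower on day 7, where 2181 would be counted on average without any change. Probes vary together, so without any change the count of a single comparison can lie well above or below that average. Bright probes had the larger share, with 2044 (12.4%) counted, 936 higher and 1108 lower. Of the dim probes 1464 (5.39%) were counted, 752 higher and 712 lower. An exact Wilcoxon test gave 0 probes after adjustment and 2926 before it. The median bright probe differed by 0.147 between the days and 1 in 100 (99th percentile) by more than 0.906. The 95% confidence interval of the difference lay within 2-fold for 91.4% of the bright probes, with a median half-width of 0.317.

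Array quality weights give each array an influence in the fit that falls with its distance from the day means. They were low for replicates 2 and 7 of day 7, at 0.433 and 0.381, and ran from 0.909 to 1.49 for the 8 others of that day and from 0.654 to 1.35 on day 5. With these weights limma passed 802 probes (1.84%) at the adjusted threshold, of which 386 rose and 416 fell from day 5 to day 7. Bright probes made up 677 of them, 310 that rose and 367 that fell, which is 4.11% of the bright probes. The other 125 were dim, 76 that rose and 49 that fell (0.46%). At an unadjusted p under 0.05 the weighted fit counted 7227 probes (16.6%), or 30.3% of the bright and 8.24% of the dim ones.

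The weighted differences of these probes were of moderate size. Bright probes that rose did so by a median of 0.767 on the log2 scale, with a range from 0.328 to 2.46, and those that fell had a median difference of 0.661 in size, with a range from 0.293 to 2.06. More than 2-fold was reached by 74 of the 310 and by 47 of the 367. Past the threshold or not, 367 probes (0.841%) differed by more than 2-fold with weights, 2.03% of the bright and 0.122% of the dim ones. Without weights the same 2 sets had medians of 0.619 and 0.513, all 802 probes kept their sign, and 376 of the 386 that rose and 406 of the 416 that fell had an unadjusted p under 0.05.

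**Figure D2:**
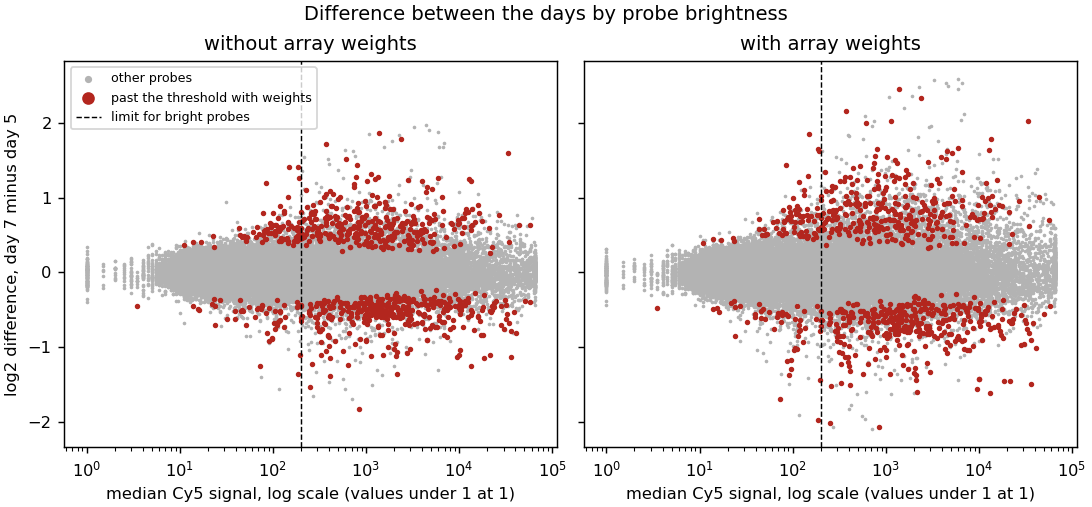
Difference between the day means (day 7 minus day 5, log2 scale, y axis) of each of the 43627 probes against its median Cy5 signal (log x axis), without weights on the left and with array weights on the right. The 802 probes past the threshold with weights are red and the dashed line marks a signal of 200, right of which 677 of them lie.

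The probe with the smallest p was C004R149, which was lower on day 7. Its log2 ratio on day 5 had a lowest value of -0.12, a median of 0.43 and a highest value of 1.41, and on day 7 these were -0.93, -0.38 and -0.07. Of the fish of day 7, 9 lay below every fish of day 5, and 10 of 10 lay below the day 5 mean. The median Cy5 signal was 7070 on day 5 and 3810 on day 7, while the Cy3 signal of the pool was 3570 and 3690. The means were 0.51 ± 0.45 (SD, n = 10) and -0.39 ± 0.23 (n = 10), a difference of -0.90 (standard error, SE, 0.17, limma adjusted p = 0.0829, and 0.0225 with weights). The difference was -0.88 in tank 1 and -0.93 in tank 2. In the fish of days 0 to 3 its mean was 0.01 ± 0.39 (SD over 39 fish), between the levels of day 5 and day 7. Of the 2 fish that stood apart on day 7, replicate 2 (-0.93) was the lowest here and replicate 7 (-0.30) lay near the median, and without both the difference was -0.85.

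Probe C127R147 had the largest difference among the 10 lower bright probes with the smallest p. On day 5 it ran from -0.52 to 1.99 with a median of 0.56, and on day 7 from -1.29 to -0.05 with a median of -0.50. The days overlapped, with 5 of 10 fish of day 7 below every fish of day 5. The median Cy5 signal was 1080 on day 5 and 478 on day 7. The difference was -1.23 (SE 0.27), a 2.35-fold lower level (limma adjusted p = 0.232, and 0.0257 with weights). It was -1.64 in tank 1 and -0.82 in tank 2.

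Among the brightest probes named here were C068R055 and C015R144, both lower on day 7. Probe C068R055 had a median Cy5 signal of 29900 on day 5 and 14800 on day 7, against 16100 and 16800 in the pool. Its log2 ratio ran from -0.66 to 0.78 on day 5 (median 0.33) and from -0.88 to -0.18 on day 7 (median -0.57), so that the days overlapped only through replicate 2 of day 5, the lowest fish of that day. The difference was -0.84 (SE 0.19, limma adjusted p = 0.232, and 0.0257 with weights). Probe C015R144 had median Cy5 signals of 21100 and 13400, and its difference was -0.53 (SE 0.13, limma adjusted p = 0.293, and 0.0257 with weights).

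Differences near 0.5 in size, with little spread between fish, were found for C128R130, C163R126 and C070R021. Probe C128R130 ran from 0.06 to 0.75 on day 5 and from -0.38 to 0.11 on day 7, with medians of 0.38 and -0.11. The overlap was narrow, since 8 of 10 fish of day 7 lay below all of day 5 and the other two at 0.08 and 0.11. Its difference was -0.50 (SE 0.11). Probe C163R126 ran from -0.07 to 0.61 and from -0.67 to 0.09 (medians 0.20 and -0.30), a difference of -0.52 (SE 0.10). Probe C070R021 ran from -0.30 to 0.51 and from -0.59 to 0.00 (medians 0.23 and -0.38), a difference of -0.54 (SE 0.11). For both, limma gave an adjusted p of 0.141 without weights. With weights it gave 0.0225 for C163R126 and 0.0257 for C070R021. The last 3 lower probes, C190R080, C137R069 and C170R124, had differences of -0.60, -0.57 and -0.72.

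Probe C127R037 had the smallest p among the higher bright probes. Its log2 ratio ran from -1.09 to 0.26 on day 5, with a median of -0.55, and from -0.38 to 1.10 on day 7, with a median of 0.35. In day 7, 6 of 10 fish lay above every fish of day 5, and 10 of 10 above the day 5 mean. The median Cy5 signal was 2030 on day 5 and 3150 on day 7, with 2080 and 2060 in the pool. The difference was 0.82 (SE 0.19), a 1.77-fold higher level (limma adjusted p = 0.232, and 0.0257 with weights). The tanks gave 1.09 (tank 1) and 0.55 (tank 2). Its mean in the fish of days 0 to 3 was 0.04 ± 0.45, above day 5 and below day 7.

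Probe C247R052 was the brightest of the 10 higher probes, with a median Cy5 signal of 8450 on day 5 and 12000 on day 7. It ran from -0.71 to 0.63 (median -0.32) and from -0.37 to 0.73 (median 0.47). Replicate 2 of day 5, at 0.63, stood above the rest of its day, and replicates 2 and 7 of day 7, at -0.37 and -0.24, were the only fish of that day below 0.21. The difference was 0.61 (SE 0.15), and 0.77 without these 2 fish of day 7 (limma adjusted p = 0.333 with all fish, and 0.0225 with weights).

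The remaining higher probes covered a narrow range of differences. Probe C213R046 ran from -0.70 to 0.21 on day 5 and from -0.34 to 0.96 on day 7, a difference of 0.62 (SE 0.15). Probe C074R041 ran from -1.21 to -0.01 and from -0.43 to 0.85, a difference of 0.66 (SE 0.16). Probe C078R065 ran from -0.87 to 0.24 and from -0.23 to 0.61, a difference of 0.56 (SE 0.14). In all 3 the middle of the day 7 fish lay near or above the highest fish of day 5, and between 4 and 6 fish of day 7 exceeded all of day 5. Probes C161R022, C211R004, C109R052 and C113R145 had differences of 0.73, 0.56, 0.52 and 0.62. Probe C108R055 had the smallest difference of the 10, 0.35 (SE 0.09). Over the 10 higher probes limma gave adjusted p from 0.232 to 0.351 without weights and from 0.0225 to 0.0365 with them.

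**Figure D3:**
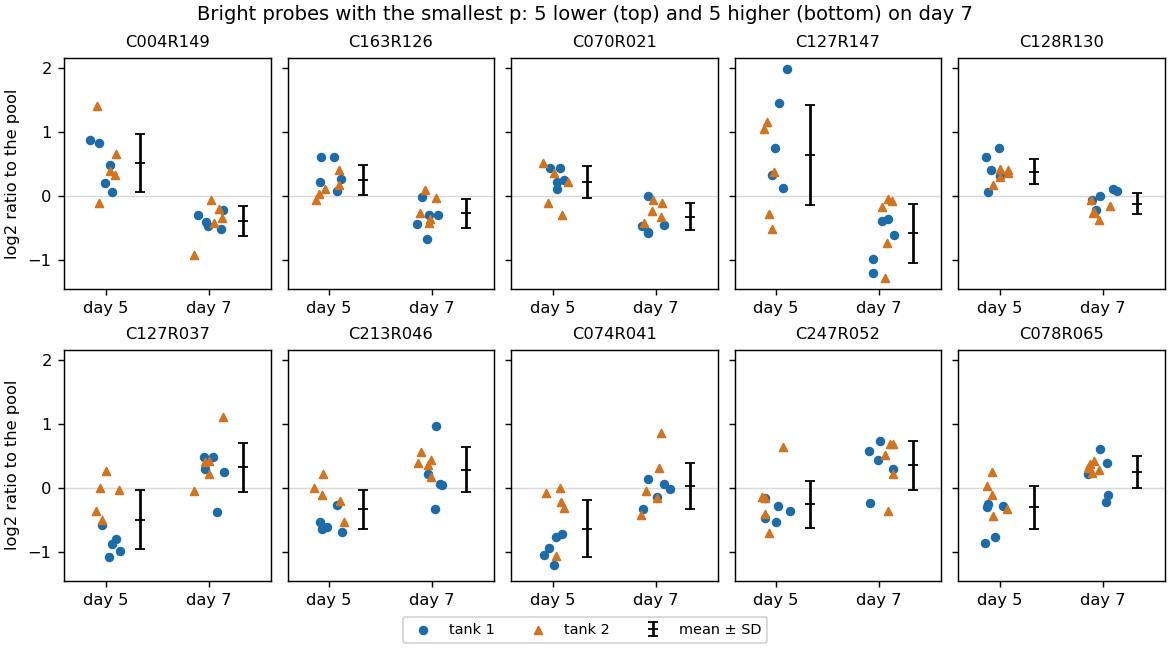
Log2 ratio to the pool (y axis) of each fish of days 5 and 7 (points, by tank) for 10 bright probes, with mean ± SD of the day beside the points. The upper row holds the 5 lower probes with the smallest p, led by C004R149 (-0.90), and the lower row the 5 higher ones, led by C127R037 (0.82); the points of the 2 days overlap in each panel.

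The 20 probes were chosen for a small p on these fish, so their separation adds no support. Their values by tank, slide and channel come from the same fish and arrays, so the choice favours agreement there too, and they are given as a description. The difference had the same sign in both tanks in 20 of the 20 probes and ranged in the lower probes from -1.64 to -0.45 in tank 1 and from -0.93 to -0.33 in tank 2. On the 5 slides that held a fish of each day, 8 of the 10 higher and 6 of the 10 lower probes had the sign of the overall difference on all 5. Among all 677 bright probes past the threshold with weights, 83.2%, 90.3% and 99.9% had that sign on the 3 slides with other fish of day 7. On the slides that held replicates 2 and 7 of day 7 these shares were 42.1% and 51.8%. The 677 probes were chosen on these same fish with low weights for replicates 2 and 7. Such a choice favours this contrast between slides, so the shares are a description, and those over all bright probes are not given here. The pool channel moved by at most 0.29 in size for the higher and 0.11 for the lower probes, and the Cy5 channel had the sign of the ratio in 20 of 20. The largest shift in the pool belonged to C109R052, at -0.29 against 0.25 in Cy5, so about equal parts of its difference came from the 2 channels.

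Weights brought forward bright probes for which replicates 2 and 7 of day 7 lay farther toward day 5 than the others of their day. In these probes 8 or 9 of 10 fish of day 7 were past the day 5 mean in the direction of the difference. Probe C026R031 ran from -0.91 to 0.87 on day 5, with a median of -0.55, and from -0.30 to 1.70 on day 7, with a median of 1.11. Replicates 2 and 7, at -0.30 and -0.22, were its lowest fish of day 7. The difference was 1.05 (SE 0.28) without weights and 1.28 (SE 0.25) with them (limma adjusted p = 0.351 and 0.0225). Probe C158R121 ran from -0.50 to 0.78 on day 5 and from -1.62 to 0.67 on day 7, with medians of 0.38 and -0.71, and 8 of 10 fish of day 7 lay below all of day 5. Replicates 2 and 7, at 0.15 and 0.67, were its highest fish of day 7. Its difference was -0.86 without weights and -1.03 with them. Probe C172R053 went from -0.80 to -1.01 in the same way, with replicate 2 of day 7 at 0.90. Probes C048R080, C193R075 and C169R055, with differences of 0.60, 0.47 and -0.48, complete this set.

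The dim probes with the smallest p had low signals in both channels. Probe C235R080 had a median Cy5 signal of 49.2 on day 5 and 91.0 on day 7, and its ratio differed by 0.61 (SE 0.14). Probe C222R130 went from 128 to 262, a difference of 0.68. Probe C031R149 went from 11.5 to 30.5, a difference of 0.48. The signals of C031R149, and that of C235R080 on day 5, were thus near or below the offset of 50. Median Cy5 signals of the lower dim probes on days 5 and 7 were 23 and 8.5 for C230R054. They were 68.5 and 45 for C176R117, and 66.8 and 42.2 for C244R053. The lower dim probes C230R054, C176R117 and C244R053 differed by -0.49, -0.52 and -0.70, and in each the pool channel moved the opposite way, by 0.19, 0.21 and 0.28, against -0.26, -0.28 and -0.39 in Cy5. The same held for C235R080, C222R130 and C031R149, by -0.21, -0.07 and -0.09, against 0.42, 0.67 and 0.43 in Cy5. The limma adjusted p of the 6 dim probes ran from 0.232 to 0.333 without weights and from 0.0225 to 0.0414 with them. In the whole set of 43627 tested probes, 1 (0.00229%) had no overlap between the fish of the 2 days, which is 0 bright probes (0%) and 1 dim probe (0.00368%), the dim probe C256R040 with a median signal of 19. It is named for that count after its values were seen. It ran from -0.02 to 0.35 on day 5 and from -0.30 to -0.02 on day 7, so that the days met to 2 decimals, a difference of -0.30 (limma adjusted p = 0.515).

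The largest differences between the day means belonged to probes that varied widely among fish, not to those with a small p. The 6 largest among bright probes were looked up after the values were seen. Probe C155R124 ran from -5.54 to 0.75 on day 5, with a median of -2.92, and from -5.26 to 1.44 on day 7, with a median of 0.23. Its difference of 1.98 had an SE of 0.94 (limma adjusted p = 0.61, and 0.0895 with weights). Replicates 2 and 7 of day 7, at -5.26 and -4.09, were as low as the low fish of day 5. The 39 fish of days 0 to 3 covered a like range for it, from -6.00 to 2.16. Probes C100R097, C145R119, C248R119 and C089R119 behaved alike, with differences of 1.94, 1.90, 1.87 and 1.85 and replicate 2 of day 7 between -5.77 and -3.73. Probe C242R062, with a difference of 1.87, was the one of the 6 past the threshold with weights (adjusted p = 0.0344). Among bright probes 116 (0.704%) differed by more than 2-fold without weights, 70 higher and 46 lower, and 55 of the 116 passed the threshold with weights. Among dim probes 11 (0.0405%) did.

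Part of the difference between the days lay along the line on which the fish of days 0 to 3 varied. Of the summed squared difference of the day means over all probes, 39.5% fell on that single axis. The axis held 24.5% of the variation among the fish of days 0 to 3, so a sizeable share falls there without any change. The gap between the days on it did not pass its test (exact permutation p = 0.181), so this share and those below are descriptions. The axis was computed without the fish compared, although all arrays share the pool. Of the bright probes past the threshold with weights, 308 of the 310 higher and 362 of the 367 lower ones had the sign that the axis gives them, against 75% of all bright probes for the unweighted difference. For the dim probes past the threshold these were 71 of 76 and 42 of 49, against 55.9% of all dim probes. The weights lower the influence of replicates 2 and 7 of day 7, the lowest fish of that day on the axis. Weighted calls therefore favour probes that follow the axis, and their counts here are a description. Across the 16476 bright probes, loading on the axis and difference between the days correlated at 0.73, a description over probes of the same 59 arrays, which are not independent. With the axis score of each fish as a covariate, chosen after the values were seen, the weighted fit passed 1 probe in place of 802. As the weighted calls favour probes along the axis, that drop is a description too.

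Levels on the other days placed the mean of day 5 farther from the early days than that of day 7. The day 7 means include replicates 2 and 7, which lay far from the others of that day. Distances without these fish are not given here. For the 310 bright probes higher on day 7, the median level was 0.10, 0.20, 0.21 and 0.13 on days 0, 1, 2 and 3, then -0.29 on day 5 and 0.34 on day 7. For the 367 lower ones it was -0.26, -0.32, -0.34 and -0.22 on days 0 to 3, then 0.07 and -0.45. The level of day 5 thus lay on the other side of 0 from the earlier days in both sets, and day 7 lay beyond them in the opposite direction. Day 5 was farther from the mean of days 0 to 3 than day 7 in 275 of the 310 and 332 of the 367. Day 5 lay beyond all 4 earlier day means in 304 of the 310 and 360 of the 367, and day 7 in 219 and 270. These probes were chosen for a difference between days 5 and 7, so these counts are a description. Over all bright probes day 5 was the farther one in 64.0%, with a median distance of 0.116 against 0.0734 for day 7, and over dim probes in 51.8%. Day 5 lay beyond all 4 earlier day means, on either side, in 54.8% of all bright probes, and day 7 in 38.5%. Over dim probes these shares were 40.8% and 38.9%, so for day 7 the bright probes gave no larger share than the dim ones. A day mean often falls beyond 4 others without any change.

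**Figure D4:**
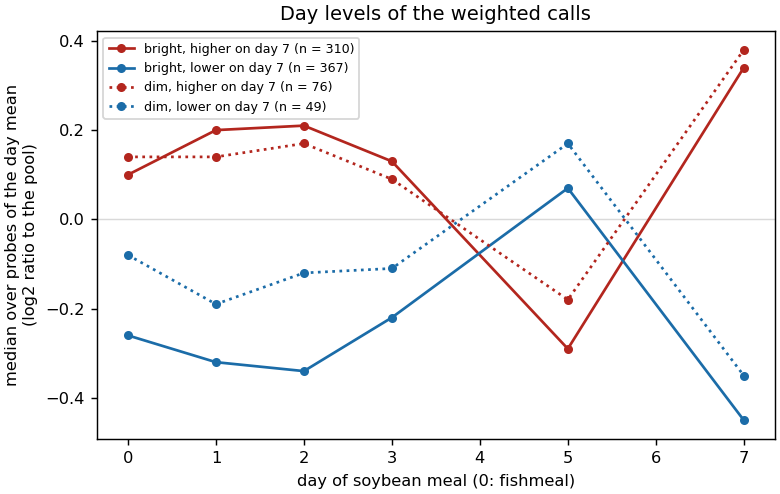
Median over probes of the day mean (log2 ratio to the pool, y axis) on each sampling day (x axis) for the 802 probes past the threshold with weights, split into bright (solid) and dim (dotted) probes and into those higher (red) and lower (blue) on day 7. Bright higher probes stand at -0.29 on day 5 and 0.34 on day 7, and bright lower ones at 0.07 and -0.45; the probes were chosen for this difference.

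The difference was also fitted within each tank. Each tank has its own 5 fish of either day, so the tank differences share no fish, although all arrays share the pool. Across bright probes they correlated at 0.399 and had the same sign in 61.7%, and across dim probes at 0.0909 and 51.3%. Probes vary together along the axis and are not independent, so these values are a description. The median bright probe differed by 0.223 in tank 1 and 0.135 in tank 2. With limma 0 probes passed in either tank without weights, with 3871 (8.87%, tank 1) and 1270 (2.91%, tank 2) at an unadjusted p under 0.05. With weights 486 passed in tank 1 and 0 in tank 2, with 17.5% and 6.06% of the probes at an unadjusted p under 0.05. These counts come from a fit of all 59 arrays with a mean for each day and tank. With the fish of tank 1 alone the weighted count was much smaller, as given in the last section. The tanks were not shown to differ, since the test of the difference between them passed 0 probes, with 1543 (3.54%) at an unadjusted p under 0.05 without weights, and 2509 (5.75%) with a smallest adjusted p of 0.162 with them. The low fish of day 7 were 1 in each tank, and without them the tank differences correlated at 0.704 across bright probes. These fish were singled out by the same values, so that correlation is a description and not a test.

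The pool channel served as the measure of what differed between the arrays without the fish. Fitted alone, Cy3 gave 1222 probes (2.8%) at an unadjusted p under 0.05 and Cy5 alone gave 2370 (5.43%), with 0 probes after adjustment in either. With weights these were 1327 (3.04%) and 5219 (12%), again with 0 after adjustment. Of the 802 probes 43 had an unadjusted p under 0.05 in Cy3 with weights and 766 in Cy5. With weights Cy5 had the sign of the ratio in 802 of them and Cy3 in 210. A pool shift of the other sign adds to the difference of the ratio. These counts are a description, since the 802 probes were chosen on the ratio of the same arrays. The place of the bright ones on the array was even, with 166, 166, 178 and 167 of the 677 in the lower left, lower right, upper left and upper right part. In the same order these parts held 24.7%, 25.3%, 24.8% and 25.2% of all bright probes.

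The number of weighted calls turned on single fish and on the processing. Leaving out any 1 of the 20 fish moved it by more than 1.5 times, to 0 when the fish left out was replicate 3, 8 or 9 of day 5 or replicate 5 of day 7. The highest count, 2430, came without replicate 2 of day 5. It was 1672, 54, 1886, 1402, 303 and 1 without replicates 1, 4, 5, 6, 7 and 10 of day 5 in turn. On day 7 it was 2282 without replicate 2 and 2148 without replicate 7, and it was 465, 185, 7, 2, 168, 264 and 475 without replicates 1, 3, 4, 6, 8, 9 and 10. It was also 0 without the offset, with the authors' table of log ratios in place of the scanner values and with slide as a fixed block, and 55 with only the 20 arrays of these days. Without weights, leaving out 1 fish gave 0 to 5 probes, and leaving out replicates 2 and 7 of day 7 together gave 1254, 586 higher and 668 lower.

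**Figure D5:**
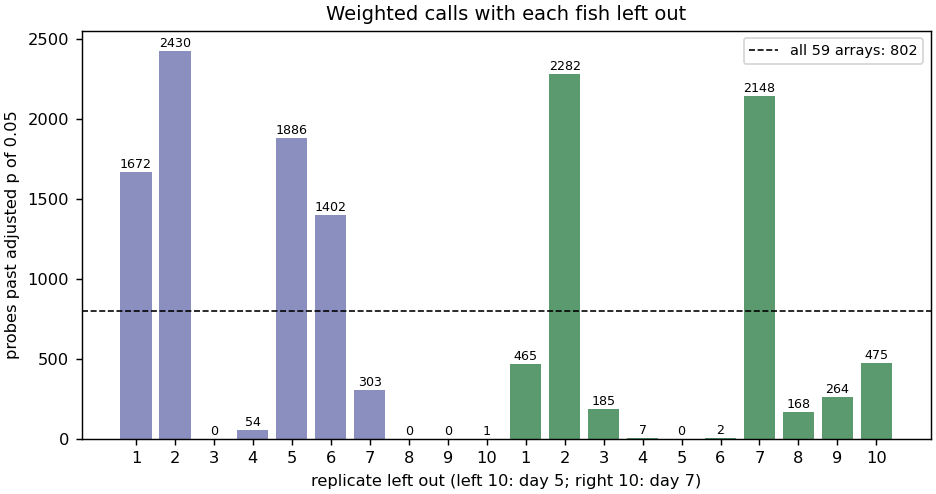
Number of probes past an adjusted p of 0.05 in the weighted limma fit (y axis) when 1 fish is left out (x axis, the 10 fish of day 5 on the left in violet and the 10 of day 7 on the right in green), with the count for all 59 arrays, 802, as a dashed line. The bars run from 0 to 2430, and 4 of the 20 stand at 0.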

How the data were processed

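The authors deposited background-corrected median intensity values of every spot in both channels, per the file headers, with no method of correction named. They also deposited a table of log2 values, which matched log2(Cy5/Cy3) of the same arrays centred on each probe's median (own-array correlation 0.949 to 0.997 over 14678 probes); its within-array normalization is unknown here. Control spots (1531) and 62 probes with flag code 1 were left out. Signals below 0 were set to 0, 50 was added, and log2 ratios were normalized by loess within arrays (span 0.3). Day means of 59 arrays were fitted in limma 3.58.1 (R 4.3.3) without covariates, with and without arrayWeights, and p-values were adjusted over 43627 probes. The fit was tried on values of these arrays shuffled between fish, with known differences added to some probes. That trial required recovery of the largest of these differences and set no limit on false calls. The p-values treat fish of 2 tanks as independent. Named probes were the 10 bright ones with the smallest p in each direction, then 3 by the weighted fit and 3 dim ones. The comparison, the limit for bright probes and these rules were chosen with earlier results of these data known. Planned gene lists gave no result, because probes carried no gene names. Replicate numbers mark separate fish and do not pair them.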

Additional observations from a re-analysis of the deposited data

Results flagged for a closer look

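Among 72 sets of values (32 named probes and 4 properties of the arrays on each day), 7 held a fish far from the others of its day by Dixon's ratio of gap to range, where chance gives about 3.6. Replicate 2 of day 5 was such a fish for 3 probes. It had a log2 ratio of 0.63 for C247R052, with the nearest of the others at -0.15, of -0.66 for C068R055 (nearest 0.06) and of -0.37 for C137R069 (nearest 0.23). On day 7, replicate 7 was at -0.77 for C048R080 (nearest 0.00) and at 0.67 for C169R055 (nearest 0.07), and replicate 2 at -0.93 for C004R149 (nearest -0.52). On day 7, replicate 4 had the lowest median Cy5 signal, 55.5, with the next lowest at 71. The search is for single fish and does not find the pair of low scores on day 7.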

How the results depend on the processing

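Each of the 32 named probes kept its sign under all settings run for it. They were chosen for a small p on these fish, which the settings reuse, so this is a description. Without weights, 0 probes passed under 15 of 19 settings, among them the exact Wilcoxon test, where a single probe could not pass. C004R149 alone passed among bright probes only (1), with the replicate block (1, limma adjusted p = 0.0489) and at a threshold of 0.1 (1). Without replicates 2 and 7 of day 7, 1254 passed. Leaving out 1 fish gave 0 to 5. With weights, 802 became 55 with the 20 arrays alone, 0 without offset, 15 with median centring and 0 with the authors' table. The count was 0 with slide as a fixed block, 493 with position, 89 with the replicate block and 2172 at a threshold of 0.1. It was 46 with the fish of tank 1 alone, 0 with those of tank 2 alone and 3505 without replicates 2 and 7. It was 1 with the axis score and 0 to 2430 with 1 fish left out. Among bright probes only the count was 3577. There fewer probes were tested, and weights and spread were also estimated from bright probes alone. Unadjusted counts without weights were 1972 among bright probes only, 1358 with tank 2 alone and 7716 without replicates 2 and 7 (2741 to 5128 with 1 fish left out). Median centring gave 2436, divided into 1608 higher and 828 lower, against 1688 and 1820 with loess, and its 15 probes with weights were 14 higher and 1 lower, against 386 and 416. With weights they were 3352 with slide as a fixed block, 2717 with tank 2 alone and 2976 with the axis score (5640 to 8320 with 1 fish left out). Without replicates 2 and 7 the first component of all arrays differed by 54.4 in place of 29.2, and the share of days was 16.2%. These fish had the lowest scores of day 7 on that component, so these values, and the spread without them, are descriptions and not tests. The difference in spread of 0.0348 turned to -0.0537 without offset, -0.0171 with median centring, -0.0548 with the authors' table and -0.1 without replicates 2 and 7. The cause of these shifts was not tested. Replicate numbers did not pair the fish: deviations of same-numbered fish of days 5 and 7 correlated at -0.65 to 0.386, and 0 of 10 day 7 fish correlated best with their own number.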
